A study of Mus musculus with 36 samples.

Results

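The 10 genes described here encode proteins of the contacts between liver cells and the kinases that act on them: the cadherins Cdh1 and Cdh2, the catenins Ctnna1, Ctnnb1, Ctnnd1 and Jup, the tyrosine kinases Src and Yes1, and the junction proteins Epcam and Tjp1. They were taken by name from a list, with no threshold on a measured value, and all 10 were found among the 13862 genes of the RNA table. With them go all 20 DNase hypersensitive sites (DHSs) of the chromosome 8 interval around Cdh1, the first starting at 106561132 and the last ending at 106699908, of 98170 DHSs in the table.

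A classical cadherin on one cell binds the same cadherin on its neighbour. Inside the cell its tail holds β-catenin or plakoglobin, α-catenin ties these to actin, p120-catenin keeps the cadherin at the surface, and Src family kinases phosphorylate the complex and can loosen the contact. β-catenin also works in the nucleus with TCF factors as the effector of Wnt signalling, which in liver maintains the genes of hepatocytes around the central vein, while E-cadherin is best known from hepatocytes near the portal tract and from bile duct cells.

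Livers of 18 male mice each gave a DNase-seq library, which counts fragments cut out of open chromatin, and a library of total RNA. C57BL/6 mice came from Taconic at 9 to 11 weeks of age. B6C3F1 mice, first-generation hybrids with a C57BL/6 mother and a C3H/He father, came from Charles River at 4 to 5 weeks. Mice are named as in the sample titles, Vh for vehicle and PB for the drug, as in Vh_1021 and PB_2021 of C57BL/6 and Vh_1031 and PB_2031 of B6C3F1. In each strain 5 of the mice profiled drank phenobarbital (PB), a barbiturate that activates the nuclear receptor CAR in hepatocytes and promotes liver tumours in B6C3F1, at 0.05% (wt/vol) in their water for 91 days, and 4 drank plain water, called vehicle here. The paper describes 5 animals per treatment group, and 4 vehicle mice per strain are among the samples. Strain, age, supplier and the source of the PB (Hänseler AG for C57BL/6, Sigma-Aldrich for B6C3F1) go together. The livers of the strains were also archived from separate studies, so the parts of all these in any difference between strains cannot be told apart.

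Reads counted in genes (in units of 1e6) came to 24.4 to 27.6 per vehicle and 23.8 to 27.8 per PB mouse in C57BL/6, and 27.2 to 30.3 and 27.0 to 29.7 in B6C3F1. Reads counted in DHSs, in the same units, ranged from 21.4 to 58.1 and from 19.4 to 44.6 in vehicle and PB mice of C57BL/6. In B6C3F1 they ranged from 7.01 to 24.4 in vehicle and from 14.5 to 25.7 under PB, and the lowest was vehicle mouse Vh_1033. RNA levels are CPM, counts per 1e6 reads of a library size scaled by the authors, and DHS levels are counts scaled by 1 factor per mouse, called normalized counts. After the scaling of RNA the values of a mouse add up to a little more than 1e6 in all 9 B6C3F1 mice and a little less in all 9 C57BL/6 mice, and this enters every difference between strains. Fold changes are differences of limma group means of log2(CPM + 0.1) or log2(normalized count + 1), given with their standard error. A gene or DHS was called where the fold change was at least 0.58 in size and limma's adjusted p, over everything tested, was at most 0.01. Reads of both strains were aligned to mm10, a C57BL/6 genome, which the authors kept for DNase-seq after also mapping B6C3F1 samples to an imputed C3H/HeJ genome. They reported that read pairs common to both alignments did not differ and that few pairs were unique to either. The files hold the mm10 values alone, so the part of alignment at single genes and DHSs was not tested here. Comparisons of treatments and of strains draw on the same 4 groups of mice.

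The drug acted in both strains. Cyp2b10, the classical CAR target, stood at 7.53 to 11.1 CPM in vehicle and 897 to 1489 CPM under PB in C57BL/6, and at 5.51 to 16.7 and 1179 to 1737 CPM in B6C3F1. Its log2 fold change was 7.07 ± 0.28 in C57BL/6 (n = 4 and 5, limma adjusted p = 6.72e-10) and 7.13 ± 0.28 in B6C3F1 (adjusted p = 4.66e-10). Cyp2c55, another inducible cytochrome P450, rose by 4.25 ± 0.20 and 4.34 ± 0.20 (limma adjusted p = 4.29e-09 and 2.43e-09). All 6 hepatocyte markers listed were in the table, led by Alb, the serum albumin gene, with a mean of 55262 CPM.

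Per kilobase of exon, the order of mean levels over all mice began with Ctnnb1 at 82.8 ± 3.52 CPM per kb (SD, n = 18), Ctnna1 at 39.0 ± 1.35, Ctnnd1 at 27.0 ± 2.24 and Cdh2 at 25.9 ± 1.61. It went on with Cdh1 at 13.8 ± 5.32, Yes1 at 12.5 ± 0.897, Tjp1 at 11.0 ± 0.806, Jup at 5.14 ± 0.396, Src at 1.08 ± 0.678 and Epcam at 0.554 ± 0.105 CPM per kb. Ctnnd1 and Cdh2 differed by less than their spread, and Cdh1 differed from Yes1 and from Tjp1 by less than its own spread. The place of Cdh1 depended on the group: at 6.86 CPM per kb in vehicle B6C3F1 it was below Yes1 (12.1) and Tjp1 (9.98), in vehicle C57BL/6 at 12.6 it was below Yes1 (13.1), and under PB it was above both. Src and Epcam were within their spread in vehicle mice (0.572 and 0.551 in C57BL/6, 0.630 and 0.487 in B6C3F1), and Src was above Epcam by more than their spread under PB (0.904 and 0.574, then 2.01 and 0.592). Most of these genes were steady from mouse to mouse. The highest CPM was 6.02 times the lowest for Src, 4.89 times for Cdh1 and 2.62 times for Epcam, against 1.14 to 1.39 times for the other 7 genes.

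E-cadherin RNA moved most among the adhesion genes, and it did so in B6C3F1. Cdh1, which encodes E-cadherin, stood at 52.2, 51.9, 62.7 and 57.5 CPM in the vehicle C57BL/6 mice and at 55.3, 60.9, 55.6, 82.0 and 79.3 CPM under PB. In vehicle B6C3F1 mice it stood at 37.4, 32.3, 21.7 and 30.2 CPM, and under PB at 104, 56.9, 106, 74.9 and 82.7 CPM. Every vehicle B6C3F1 mouse was below every other mouse of the study, and every PB mouse of that strain was above all 4 of its vehicle mice, whereas the C57BL/6 groups overlapped, with mice PB_2024 and PB_2025 high. The group means ran from 30.4 ± 6.57 CPM in vehicle B6C3F1 through 56.1 ± 5.13 and 66.6 ± 13 in vehicle and PB C57BL/6 to 84.9 ± 20.6 CPM in PB B6C3F1 (SD), and the last 3 of these are neighbours whose mice overlap in part.

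**Figure D1:**
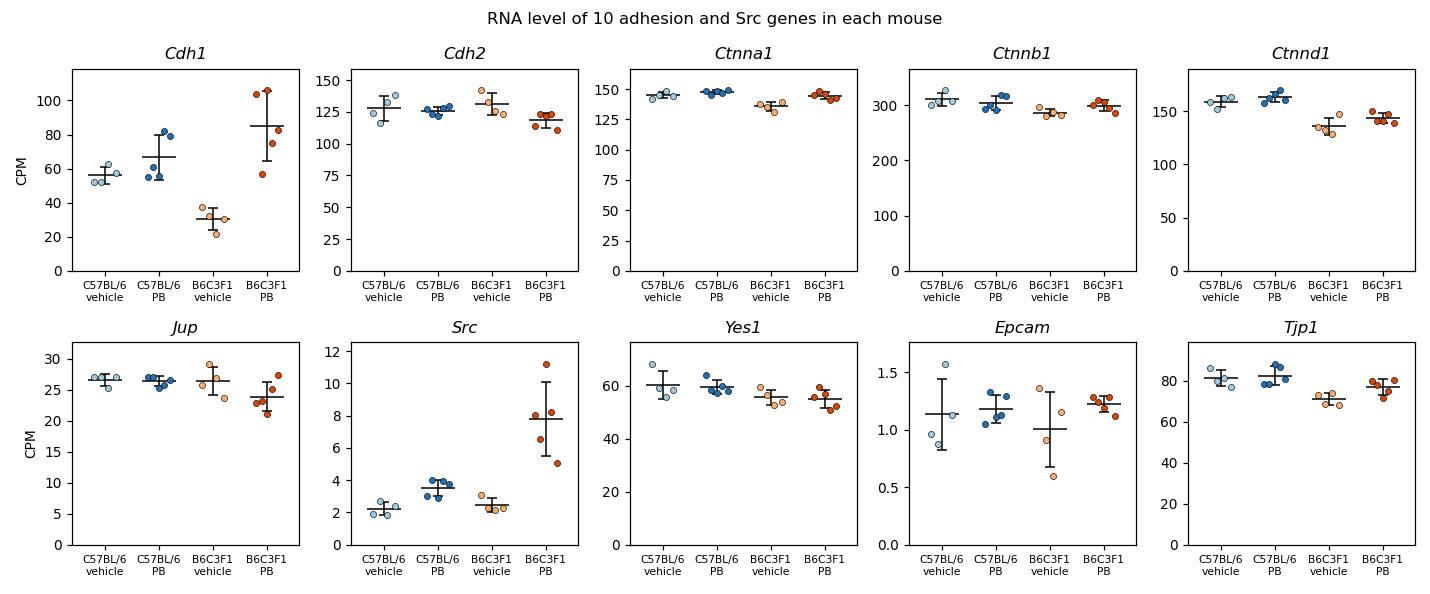
RNA level in CPM (y axis, from 0) of the 10 genes in the 4 groups (x axis), with 1 point per mouse and bars for the mean and SD. Cdh1 in vehicle B6C3F1 lies between 21.7 and 37.4 CPM, below all other mice, and Src in PB B6C3F1 lies between 5.04 and 11.2 CPM, above all other mice.

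The log2 fold change of Cdh1 under PB was 1.47 ± 0.19 in B6C3F1 (limma adjusted p = 0.000169, higher in 5 of 5 PB mice than in any vehicle mouse) and 0.23 ± 0.19 in C57BL/6 (adjusted p = 0.74). The difference between these responses was 1.24 ± 0.28 and did not pass over all genes (limma adjusted p = 0.182). In vehicle mice Cdh1 was lower in B6C3F1 by a log2 difference of −0.90 ± 0.21 (limma adjusted p = 0.00666). That call was lost without mouse Vh_1021, Vh_1022, Vh_1023, Vh_1025, Vh_1032, Vh_1033 or Vh_1035, with limma adjusted p of up to 0.0232 and differences of −0.75 to −0.94, and it held without Vh_1031 at −1.01. Under PB the strains overlapped and the difference was 0.33 ± 0.18 (limma adjusted p = 0.189). These are whole livers, so fewer cells that make Cdh1 and less Cdh1 RNA per cell cannot be told apart.

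Bile duct cells carry E-cadherin too, and their markers were measured beside it. Of 9 cholangiocyte markers 7 were in the table, and Cftr and Cldn4 were absent from it. Summed, the 7 came to 50.5, 45.2, 50.2 and 42.6 CPM in vehicle and 42.1, 47.0, 55.0, 45.1 and 49.4 CPM in PB mice of C57BL/6. In B6C3F1 they came to 42.4, 40.7, 45.1 and 56.5 CPM in vehicle and 45.4, 41.0, 47.6, 47.3 and 40.6 CPM under PB. The sums of the 4 groups overlapped, and Spp1, the osteopontin gene, made up most of them with a mean of 32.4 CPM. Under PB limma called 0 of the 7 in either strain, beside 0.874% of all genes in C57BL/6 and 2.00% in B6C3F1. Between vehicle strains it called 1 of the 7, beside 3.63% of all genes. This was Krt23, lower in B6C3F1, a call that was lost without single mice (values given with the other markers). As a list the 7 were split between vehicle strains, with 3 above 0 and a median log2 difference of −0.07.

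N-cadherin RNA was steadier. Cdh2, its gene and the other main cadherin of hepatocytes, ranged from 110.4 to 142 CPM over the 18 mice. In B6C3F1 all 5 PB mice, at 110.4 to 123 CPM, were at or below the lowest vehicle mouse at 123 CPM, a log2 fold change of −0.14 ± 0.05 that did not pass (limma adjusted p = 0.0985). In C57BL/6 it was −0.02 ± 0.05 (limma adjusted p = 0.947). Per exon length, the ratio of Cdh1 to Cdh2 was 0.289, 0.266, 0.188 and 0.268 in vehicle and 0.995, 0.505, 0.951, 0.665 and 0.819 in PB mice of B6C3F1. In C57BL/6 it was 0.459, 0.487, 0.516 and 0.456 in vehicle and 0.475, 0.540, 0.498, 0.702 and 0.668 under PB. E-cadherin RNA was thus the smaller of the pair in all 18 livers, smallest in vehicle B6C3F1 (mean 0.253 ± 0.0442, SD) and nearest to even in PB B6C3F1 (0.787 ± 0.203).

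The catenins changed little. Ctnnb1, which encodes β-catenin, ranged from 281 to 327 CPM and gave log2 fold changes under PB of −0.03 ± 0.04 in C57BL/6 and 0.06 ± 0.04 in B6C3F1 (limma adjusted p = 0.85 and 0.409). Ctnna1, the gene of α-catenin, which links the complex to actin, ranged from 131 to 149 CPM. Its 5 PB mice in B6C3F1, at 141 to 148 CPM, were above its vehicle mice at 131 to 139 CPM, by a log2 fold change of 0.09 ± 0.04 that did not pass (limma adjusted p = 0.124). In vehicle mice Ctnna1 and Ctnnb1 were each lower in all B6C3F1 mice than in all C57BL/6 mice, by −0.09 ± 0.04 and −0.12 ± 0.04, and neither passed (limma adjusted p = 0.0969 and 0.0668). Jup encodes plakoglobin, the catenin of desmosomes that can take the place of β-catenin on a cadherin, and it ranged from 21.0 to 29.1 CPM with overlap in every comparison.

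Ctnnd1, the gene of p120-catenin, which binds the cadherin near the membrane and is a substrate of Src, differed between strains by a small and even amount. It stood at 159, 152, 162 and 163 CPM in vehicle and 158, 162, 166, 169.7 and 160.2 CPM in PB mice of C57BL/6. In B6C3F1 it stood at 135, 132, 129 and 147 CPM in vehicle and 150.2, 141, 140.4, 147 and 139 CPM under PB. All 9 B6C3F1 mice were below all 9 C57BL/6 mice. The log2 difference was −0.23 ± 0.05 in vehicle (limma adjusted p = 0.00123) and −0.18 ± 0.04 under PB (adjusted p = 0.00237), both short of the size needed for a call.

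Src RNA was scarce, and under PB it rose in B6C3F1. Src, the founding member of its kinase family, stood at 1.93, 2.73, 1.85 and 2.39 CPM in vehicle and 3.05, 3.99, 2.87, 3.94 and 3.74 CPM in PB mice of C57BL/6. In B6C3F1 it stood at 3.08, 2.25, 2.18 and 2.27 CPM in vehicle and 8.04, 6.56, 11.2, 8.22 and 5.04 CPM under PB. In both strains every PB mouse was above every vehicle mouse, and the 5 PB mice of B6C3F1 were above all other mice. The values rest on 46 to 310 reads per mouse, so the lowest carry visible counting error.

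The log2 fold change of Src under PB was 1.60 ± 0.19 in B6C3F1 (limma adjusted p = 3.62e-06). In C57BL/6 it was 0.64 ± 0.19, past the size but not the adjusted p needed for a call (limma adjusted p = 0.0702, higher in 5 of 5 mice). That size was not always reached: the value ran from 0.49 to 0.66 over other processing and from 0.56 to 0.74 without single mice. The difference between these responses was 0.96 ± 0.26 (limma adjusted p = 0.313) and did not pass. In vehicle mice the strains differed by 0.14 ± 0.20 (limma adjusted p = 0.665), and under PB Src was higher in B6C3F1 by 1.09 ± 0.17 (adjusted p = 9.3e-05), with every B6C3F1 mouse above every C57BL/6 mouse.

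Yes1, a close relative of Src with overlapping functions, ranged from 50.8 to 68.2 CPM. Its log2 fold change was −0.02 ± 0.06 under PB in each strain (limma adjusted p = 0.959 and 0.891), and its groups overlapped in every comparison. Epcam, an adhesion protein of bile duct epithelium, was near the lower end of what was measured, at 0.599 to 1.57 CPM from 17 to 40 reads per mouse, and overlapped in every comparison. Tjp1 encodes ZO-1, the scaffold that ties tight junctions to actin, and ranged from 68.4 to 88.2 CPM. In vehicle mice Tjp1 lay between 68.4 and 74.0 CPM in B6C3F1 and between 77.1 and 86.5 CPM in C57BL/6, a log2 difference of −0.19 ± 0.05 (limma adjusted p = 0.0147) that did not pass.

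Counted together, limma called 2 of the 10 genes in the PB comparison of B6C3F1, Cdh1 and Src, both higher, beside 2.00% of all 13838 genes tested. In C57BL/6 limma called 0 of 10 beside 0.874% of all genes, with 1 of 10 at an unadjusted p under 0.05 and 0 called by edgeR. Counts at an unadjusted p under 0.05 over all genes were 1711 in C57BL/6 and 3241 in B6C3F1, where 6 of the 10 were among them. Between the strains it called 1 of 10 in vehicle mice, Cdh1 as lower, beside 3.63%, and 1 of 10 under PB, Src as higher, beside 5.25%. The median log2 fold change of the 10 was 0.09 in B6C3F1 and 0.02 in C57BL/6, where the median of all genes was −0.01 in both. Groups did not overlap, with PB higher, for Src in C57BL/6 (1 of 10, beside 4.57% of all genes) and for Cdh1, Src and Ctnna1 in B6C3F1 (3 of 10, beside 5.4%). With PB lower they were apart for Cdh2 in B6C3F1 (1 of 10, beside 3.64%) and for 0 of 10 in C57BL/6 (beside 3.06%). Between strains under PB, Src was higher and Ctnnd1 lower in all B6C3F1 mice (1 of 10 each, beside 10.3% and 8.39%). The largest such count was between vehicle strains, where all B6C3F1 mice were below all C57BL/6 mice for Cdh1, Ctnna1, Ctnnb1, Ctnnd1 and Tjp1 (5 of 10, beside 10.3% of all genes). For the difference between the responses limma called 0 of 10 and 0% of all genes. Of the 10, 2 had an unadjusted p under 0.05, as did 1093 of all genes, and edgeR called 0 of either. Cdh1 and Src were picked out in the original study from these same livers, so their calls are not independent evidence.

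The chromosome 8 interval was accessible at many places around Cdh1. Of its 20 DHSs, 8 lay upstream of the gene, 1 covered its transcription start at 106603350, 9 lay inside it and 2 lay at the start and in an intron of Tango6 downstream. All 9 inside Cdh1 were in its second intron, 106604408 to 106649000, which is 44593 bp long in a gene of 16 exons. In B6C3F1 limma called 2 of the 20 under PB, both higher, beside 0.190% of all DHSs, and in C57BL/6 it called 0 of 20 beside 0.367%, with 1 of 20 at an unadjusted p under 0.05 and 0 called by edgeR. Over all 98170 DHSs in C57BL/6, 7615 had an unadjusted p under 0.05 and edgeR called 391. In B6C3F1 12 of the 20 had an unadjusted p under 0.05, beside 8997 of all DHSs, and edgeR called 2 of the 20 and 274 of all. All 5 PB mice were above all vehicle mice at 9 of the 20 DHSs in B6C3F1, beside 1.89% of all DHSs, and at 0 of 20 in C57BL/6, beside 1.74%. The median log2 fold change of the 20 was 0.51 in B6C3F1, with 18 above 0, and 0.05 in C57BL/6, with 14 above 0. Over all DHSs the medians were −0.014 and −0.002. Without mouse PB_2033 the count in B6C3F1 was 0, and it was 1 without Vh_1031, Vh_1032, Vh_1033, PB_2031, PB_2032, PB_2034 or PB_2035. Neighbouring DHSs of 1 locus are not independent of each other. The original study had reported changed DHSs at Cdh1 in B6C3F1 from these same livers. The interval was chosen with that known, so its PB counts are not independent evidence.

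The DHS over the Cdh1 start, 106603249 to 106603447, followed the RNA group by group. It stood at 75.2, 61.2, 95.1 and 62.4 normalized counts in vehicle and 86.8, 70.4, 62.6, 85.5 and 104 in PB mice of C57BL/6. In B6C3F1 it stood at 48.6, 42.1, 33.2 and 44.6 in vehicle and at 161, 90.3, 146, 106 and 156 under PB. The 4 vehicle B6C3F1 mice were the lowest of the study here as in Cdh1 RNA, mouse Vh_1033 was lowest in both, and among the PB mice of that strain mouse PB_2032 was lowest in both. Mouse Vh_1033 also had the smallest library, with 9 reads in this DHS. The fold change in B6C3F1 was 1.60 ± 0.23 on the log2 scale (limma adjusted p = 0.00152, 0.0110 without mouse PB_2033, the end of the call), and in C57BL/6 it was 0.15 ± 0.19 (adjusted p = 0.93). The difference between the responses was 1.45 ± 0.30 (limma adjusted p = 0.674) and did not pass. In vehicle mice B6C3F1 was lower by −0.78 ± 0.23 (limma adjusted p = 0.0212), without a call.

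**Figure D2:**
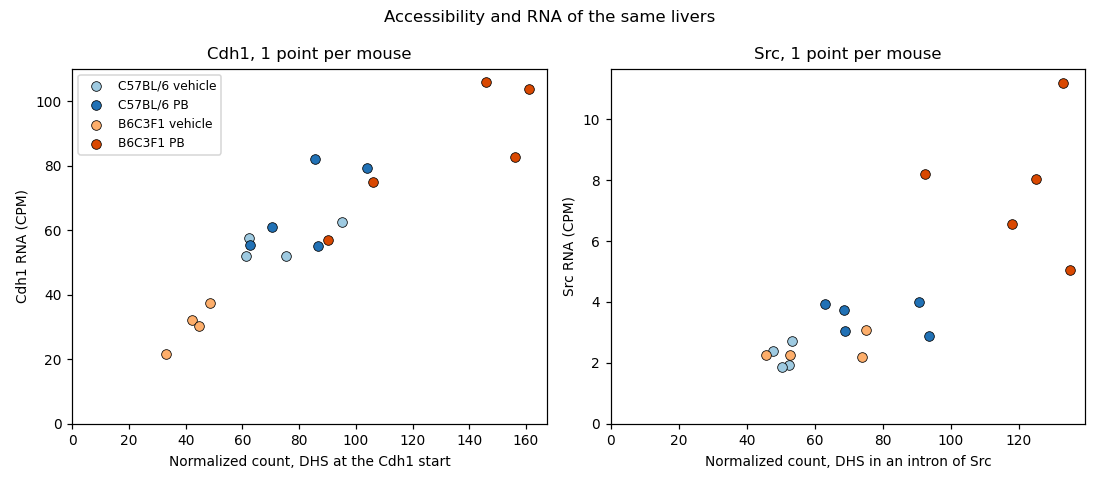
Normalized count of a DHS (x axis) and RNA level in CPM of the same mouse (y axis), both from 0, for Cdh1 with the DHS at its start and for Src with the intronic DHS at 157433999 to 157434302, 1 point per mouse and a colour per group. The 4 vehicle B6C3F1 mice sit lowest on both axes for Cdh1, and the 5 PB mice of that strain sit highest on the RNA axis for Src. The Src DHS was picked for the smallest limma p under PB outside Cdh1.

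The other DHS called under PB, 106605633 to 106606030, lay at the front of the second intron. It stood at 133, 182, 177 and 136 normalized counts in vehicle and 156, 155, 145, 185 and 224 in PB mice of C57BL/6. In B6C3F1 it stood at 120.4, 63.2, 81.2 and 168 in vehicle and at 283, 223, 297, 218 and 259 under PB. The B6C3F1 groups were apart and the C57BL/6 groups overlapped. The fold change in B6C3F1 was 1.32 ± 0.23 (limma adjusted p = 0.009), and the call was lost without mouse Vh_1031, Vh_1032, Vh_1033, PB_2031, PB_2032, PB_2033, PB_2034 or PB_2035, with limma adjusted p of 0.0117 to 0.0450. In C57BL/6 it was 0.14 ± 0.15 (limma adjusted p = 0.918), and the difference between the responses, 1.18 ± 0.29, did not pass (adjusted p = 0.849). Under PB the strains differed by 0.57 ± 0.15 at this DHS (limma adjusted p = 0.00704), just short of the size needed.

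**Figure D3:**
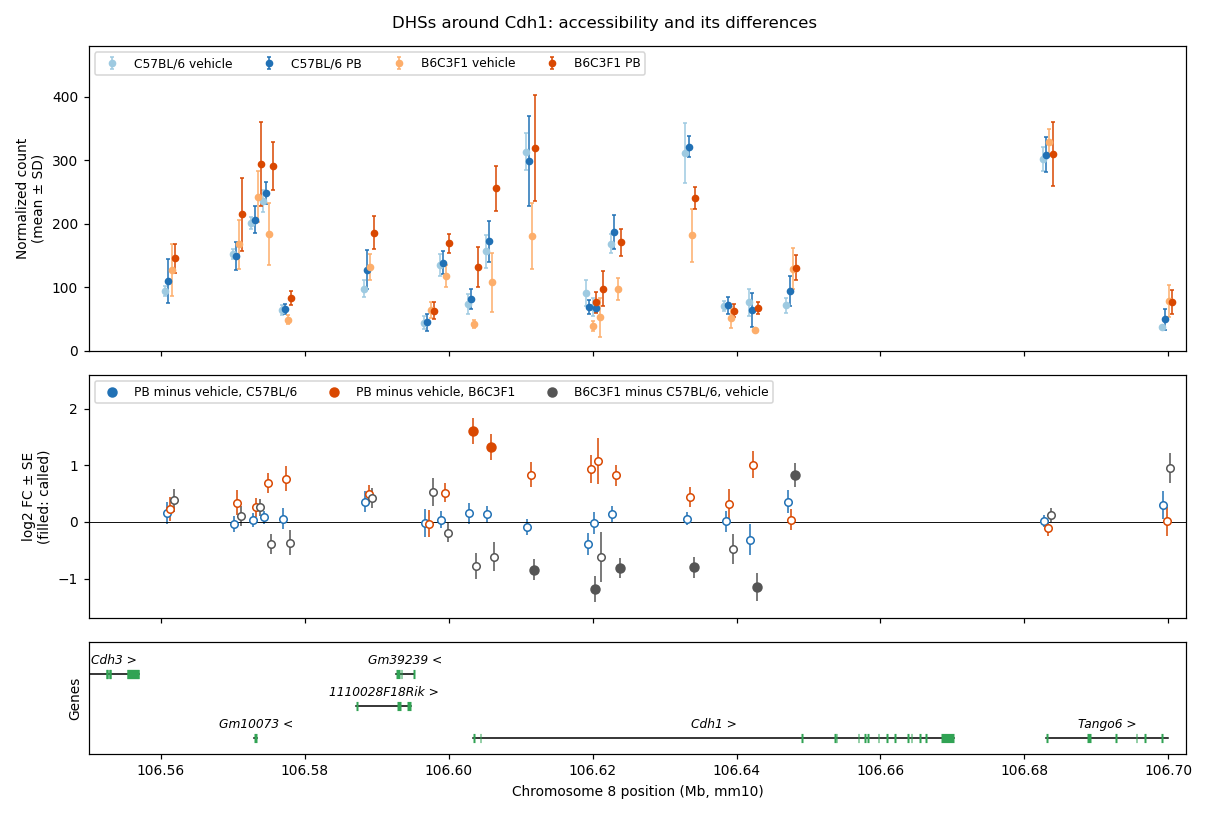
Normalized count (upper panel, mean and SD of 4 or 5 mice) and log2 fold change with its standard error (middle panel, filled where called) of the 20 DHSs by position on chromosome 8 in Mb, with points of a DHS set side by side, and RefSeq genes with short exons widened to be seen (lower panel, arrows give the strand). The DHS at the Cdh1 start rose by 1.60 on the log2 scale in B6C3F1, and 5 DHSs of the second intron were called lower in vehicle B6C3F1.

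In this fit none of the other 18 DHSs was called under PB in B6C3F1, and with all 4 groups in the fit the count over the 20 was 4. The DHSs at 106574703, 106577355, 106588656 and 106599204, upstream of Cdh1, had log2 fold changes of 0.69, 0.76, 0.49 and 0.52 under PB in B6C3F1 with all PB mice highest, and limma adjusted p between 0.0887 and 0.338. Inside the intron those at 106623102, 106633291 and 106642231 gave 0.82, 0.44 and 1.01, also with all PB mice highest and adjusted p between 0.0429 and 0.417. Those at 106611055, 106619678 and 106620625 gave 0.83, 0.94 and 1.08 with overlapping groups (limma adjusted p of 0.128 to 0.431). At 106561132, 106570525, 106573043 and 106638873 the values were 0.23, 0.34, 0.26 and 0.32, also with overlap. The DHSs at 106597171 and 106647449 gave −0.03 and 0.04. In C57BL/6 the 20 fold changes lay between −0.39 and 0.36 with every pair of groups overlapping.

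Tango6, which encodes a protein of transport and Golgi organization, offers a comparison within the interval. The wide DHS at its start, 106682843 to 106683681, had group means of 303 and 309 normalized counts in vehicle and PB mice of C57BL/6 and 329 and 310.1 in B6C3F1, with log2 fold changes of 0.02 ± 0.11 and −0.10 ± 0.14. Its RNA had group means of 11.7, 11.0, 11.0 and 9.99 CPM in the same order, with log2 fold changes of −0.09 ± 0.08 and −0.14 ± 0.08 (limma adjusted p = 0.742 and 0.31). Of the 5 genes that start in the interval, Cdh1 and Tango6 were in the RNA table, and Gm10073, Gm39239 and 1110028F18Rik were not. The last DHS, 106699690 to 106699908 in a Tango6 intron, was higher in all vehicle B6C3F1 mice than in C57BL/6, by 0.95 ± 0.26 (limma adjusted p = 0.0136).

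In vehicle mice, without the drug, limma called 6 of the 20 DHSs as different between strains, beside 10.5% of all DHSs, and edgeR called 7, beside 13042 of all 98170 DHSs. The 6 were 5 lower and 1 higher in B6C3F1, all in the second intron of Cdh1. The 5 lower ones were 106611055 at −0.84, 106619678 at −1.19, 106623102 at −0.81, 106633291 at −0.80 and 106642231 at −1.15 on the log2 scale (limma adjusted p of 0.00172 to 0.00406). The higher one, 106647449 to 106647747 at the far end of the intron, differed by 0.83 ± 0.21 (limma adjusted p = 0.00764). Without mouse Vh_1021, Vh_1022 or Vh_1023 the number called fell to 2, and with 1 mouse left out at a time it ran from 2 to 7. Only the call at 106619678 held without any single mouse (limma adjusted p of up to 0.00946). That at 106611055 was lost without Vh_1022, Vh_1023, Vh_1025 or Vh_1031, those at 106623102 and 106633291 without Vh_1021, Vh_1022 or Vh_1023, and that at 106642231 without Vh_1021 or Vh_1023. That at 106647449 was lost without Vh_1021, Vh_1022, Vh_1025, Vh_1031, Vh_1033 or Vh_1035, and over these 5 DHSs the limma adjusted p reached 0.0283. At 6 DHSs all vehicle B6C3F1 mice were below all vehicle C57BL/6 mice, beside 12.6% of all DHSs, and at 2 they were all above, beside 15.2%.

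The largest of these differences was at 106619678 to 106619907, with 84.9, 69.0, 118 and 94.2 normalized counts in vehicle and 60.3, 80.0, 57.4, 65.8 and 81.7 in PB mice of C57BL/6. In B6C3F1 it stood at 32.7, 42.1, 48.0 and 33.8 in vehicle and at 81.1, 47.9, 84.1, 85.4 and 85.0 under PB. The vehicle groups of the strains were apart, and under PB the strains overlapped (log2 difference 0.13 ± 0.21, limma adjusted p = 0.673). Under PB limma called 0 of the 20 between strains, beside 9.72% of all DHSs, with 11 of 20 at an unadjusted p under 0.05 and 2 called by edgeR. Over all 98170 DHSs 36791 had an unadjusted p under 0.05 and edgeR called 10322. The limma count became 1 without mouse PB_2024, PB_2025, PB_2034 or PB_2035 and 2 without mouse PB_2032. For the difference between the responses limma called 0 of 20 and 0% of all DHSs. Of the 20, 10 had an unadjusted p under 0.05, as did 5294 of all DHSs, and edgeR called 0 of either.

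Apart from Cdh1, the genes of the list hold 89 DHSs inside them or within 5000 bp upstream. Limma called 0 of these 89 under PB in either strain, beside 0.367% of all DHSs in C57BL/6 and 0.190% in B6C3F1. They number 30 for Cdh2, 23 for Tjp1, 11 for Ctnnd1, 8 for Src, 7 for Jup, 5 for Ctnna1, 3 for Yes1, 2 for Ctnnb1 and 0 for Epcam. For all 100 DHSs of the 10 genes, Cdh1 included, the counts at an unadjusted limma p under 0.05 were 6 in C57BL/6 and 15 in B6C3F1, beside 7615 and 8997 of all 98170 DHSs. For the 100, edgeR called 0 and 2, and the median log2 fold change was −0.01 in both.

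Outside Cdh1, the DHS with the smallest p under PB was in Src, in an intron 10244 bp from its outermost start, chromosome 2, 157433999 to 157434302. It stood at 52.5, 53.4, 50.5 and 47.7 normalized counts in vehicle and 68.8, 90.7, 93.6, 62.9 and 68.7 in PB mice of C57BL/6. In B6C3F1 it stood at 75.0, 45.6, 73.8 and 52.7 in vehicle and at 125, 118, 133, 92.4 and 135 under PB. This DHS was picked by that p, so the order of its mice is no separate evidence. Every PB mouse was above every vehicle mouse in both strains, as in Src RNA. Such groups made up 1.74% of all DHSs in C57BL/6 and 1.89% in B6C3F1. Mouse PB_2033 led in RNA and mouse PB_2035 in accessibility. The fold changes of 0.97 ± 0.22 in B6C3F1 and 0.57 ± 0.19 in C57BL/6 did not pass (limma adjusted p = 0.0436 and 0.283), nor did their difference of 0.41 ± 0.28 (adjusted p = 0.909). A second intronic DHS, 157425310 to 157425584, gave 0.92 ± 0.27 in B6C3F1 with groups apart and 0.50 ± 0.26 in C57BL/6 with overlap (limma adjusted p = 0.196 and 0.685). The remaining DHSs of Src moved either way in B6C3F1. Their means in vehicle and PB were 14.4 and 26.6 (157422918), 33.4 and 37.5 (157426250), and 159 and 131 (157457456). They were 55.5 and 55.0 (157458596), 40.9 and 34.8 (157471420), and 23.2 and 26.3 (157471814).

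For the other genes the DHS with the smallest p in a PB comparison was in an intron or upstream and was not called. These were 65469650 of Tjp1 (0.40 in B6C3F1, limma adjusted p = 0.233), 100388103 of Jup (−0.54 in C57BL/6, adjusted p = 0.338), 16757236 of Cdh2 (−0.28 in C57BL/6) and 84635687 of Ctnnd1 (0.18 in B6C3F1). Ctnna1 had 35119619 (0.29), Yes1 had 32605941 (−0.15) and Ctnnb1 had 120934948 (−0.12), all in C57BL/6, with limma adjusted p of 0.749 to 0.933. The DHSs at the starts of Ctnnb1, Jup and Yes1 overlapped between vehicle and PB mice in both strains. That of Yes1 was higher in all vehicle B6C3F1 mice (583 to 769 normalized counts) than in vehicle C57BL/6 mice (483 to 543), by 0.42 ± 0.10 (limma adjusted p = 0.00687), short of the size needed. That of Ctnnb1 had group means of 1066 and 1099.5 normalized counts in C57BL/6 and 1259.8 and 1233 in B6C3F1.

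Between the strains, 4 of the 89 DHSs outside Cdh1 were called in vehicle mice, 3 of Cdh2 and 1 of Tjp1, beside 10.5% of all DHSs. The DHS of Cdh2 at 16607725 was lower in B6C3F1 by −0.83 ± 0.17 in vehicle and −1.15 ± 0.19 under PB (limma adjusted p = 0.00258 and 9.57e-05). Those at 16662711 and 16718804 were higher by 0.76 ± 0.18 and 0.74 ± 0.18 in vehicle, and that of Tjp1 at 65319327 by 0.93 ± 0.22 (limma adjusted p of 0.00539 to 0.00676). Leaving out single vehicle mice ended each of these 4 calls in vehicle: 16607725 without mouse Vh_1021 or Vh_1025, 16662711 without Vh_1021, Vh_1022, Vh_1023, Vh_1025, Vh_1031 or Vh_1032, and 16718804 without Vh_1021, Vh_1022, Vh_1023, Vh_1031 or Vh_1032. The Tjp1 call ended without mouse Vh_1021, Vh_1022, Vh_1025, Vh_1031, Vh_1032 or Vh_1035, and over these 4 DHSs the limma adjusted p without 1 mouse reached 0.0254.

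Sequence gives another view of all 20 DHSs, those that moved and those that did not. Motifs were searched as exact letters on both strands in the 300 bases around the centre of each DHS. AGGTCA, the half-site of nuclear receptors, was in 8 of the 20 windows beside 28.1% of all DHS windows, and CACCTG, the box read by Snail and ZEB repressors of Cdh1, was in 8 of 20 beside 19.1%. TGTTTAC, a Fox motif, was in 3 of 20 beside 7.41%, CTTTGA, a TCF motif, in 2 of 20 beside 23.2%, and TTCNNNGAA, a STAT motif, in 1 of 20 beside 10.6%. A match describes letters in the genome and says nothing of a bound factor.

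The 4 sequences printed here, from the GRCm38 (mm10) genome on the + strand, are the called start DHS of Cdh1, up to the base before transcription begins at chr8:106603249-106603349, and the intronic DHSs of Cdh1 with the largest differences between vehicle strains, chr8:106619678-106619907 and chr8:106642231-106642471. The last is the central 300 bases of the Src DHS with the smallest p, chr2:157434001-157434300. Capitals mark matches to the 5 motifs on either strand.
Cdh1_start: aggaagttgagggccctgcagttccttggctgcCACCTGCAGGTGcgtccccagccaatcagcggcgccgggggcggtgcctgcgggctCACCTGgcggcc
Cdh1_intron_A: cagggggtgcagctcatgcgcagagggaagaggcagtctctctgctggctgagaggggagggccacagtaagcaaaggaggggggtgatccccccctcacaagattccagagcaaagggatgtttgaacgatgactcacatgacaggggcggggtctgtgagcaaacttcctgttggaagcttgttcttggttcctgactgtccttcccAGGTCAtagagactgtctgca
Cdh1_intron_B: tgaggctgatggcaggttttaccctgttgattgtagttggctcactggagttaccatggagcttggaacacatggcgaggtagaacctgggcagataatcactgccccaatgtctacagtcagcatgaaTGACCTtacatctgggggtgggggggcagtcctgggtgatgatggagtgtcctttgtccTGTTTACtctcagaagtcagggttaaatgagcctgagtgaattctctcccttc
Src_intron: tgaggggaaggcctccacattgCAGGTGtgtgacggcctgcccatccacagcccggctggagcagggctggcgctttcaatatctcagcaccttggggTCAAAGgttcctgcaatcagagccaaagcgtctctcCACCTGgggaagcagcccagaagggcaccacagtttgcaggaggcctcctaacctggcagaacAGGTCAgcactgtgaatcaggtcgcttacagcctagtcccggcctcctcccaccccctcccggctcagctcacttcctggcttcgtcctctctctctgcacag

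The stretch before the Cdh1 start held 3 matches to CACCTG, at 106603282, 106603288 and 106603338, of which the first pair abut on opposite strands, and 0 matches to the other 4 motifs. The first intronic DHS held 1 AGGTCA, and the other held 1 AGGTCA on the − strand and 1 TGTTTAC. The Src DHS held 1 AGGTCA, 1 CTTTGA on the − strand and 2 CACCTG, 1 on each strand.

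The relatives and partners of these genes, listed by role, gave no call under PB, which does not show that each was unchanged. Of 10 measured cadherins beside Cdh1 and Cdh2, limma called 0 in either strain, and their median log2 fold changes were 0.00 in C57BL/6 and −0.03 in B6C3F1. Cdh5, the cadherin of endothelium, gave 0.12 and 0.09, and Cdh3, the neighbour of Cdh1 on chromosome 8, gave 0.01 and 0.23. At low levels, the mean of Cdh11 went from 0.417 to 0.226 CPM in B6C3F1 and from 0.312 to 0.428 CPM in C57BL/6. That of Cdh6 went from 0.679 to 0.447 and from 0.802 to 0.777 CPM in the same order. Of 10 measured partners and linkers of catenins, limma called 0 in either strain, with medians of −0.04 and −0.11. Of 17 Src family kinases and regulators, all measured, limma called 0 in either strain, with medians of 0.03 and 0.02. Csk, the kinase that switches Src off, gave −0.02 ± 0.08 and −0.04 ± 0.08, and Fyn, a relative of Src, gave 0.03 and 0.23. Beside these zeros stand the 121 and 277 genes that limma called in C57BL/6 and B6C3F1 over the whole table, 116 and 275 by edgeR.

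Junction genes beyond the cadherins gave 1 call under PB. Of 16 tight and gap junction genes limma called 1 in B6C3F1, beside 2.00% of all genes, and 0 in C57BL/6, beside 0.874%. The 1 was Cldn2, a pore-forming claudin, whose mean fell from 104 to 64.1 CPM (log2 fold change −0.72 ± 0.10, limma adjusted p = 0.000164). With the compared groups alone in the fit this call was lost (limma adjusted p = 0.0103). In C57BL/6 Cldn2 gave −0.32, with all PB mice below all vehicle mice but no call (limma adjusted p = 0.137), and the difference between these responses, −0.40, did not pass (adjusted p = 0.503). The connexin genes Gjb1 and Gjb2 gave −0.08 and 0.05 in C57BL/6 and 0.02 and 0.11 in B6C3F1. F11r, the gene of junctional adhesion molecule A, was higher in B6C3F1 under PB by 0.58 ± 0.04 (limma adjusted p = 9.27e-10). It was the 1 of the 16 called between strains under PB, beside 5.25% of all genes. This call, at the edge of the size needed, was lost without mouse PB_2025, PB_2031, PB_2033 or PB_2034, when the difference reached down to 0.57.

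β-catenin's other partners and its targets were measured next to the catenins. Of 19 genes of the destruction complex and of Wnt receptors and factors, limma called 0 under PB in C57BL/6 (beside 0.874% of all genes) and B6C3F1 (beside 2.00%). Between strains under PB it called 1 of the 19, beside 5.25%. This was Fzd4, a Wnt receptor, at −0.64 ± 0.10 (limma adjusted p = 6.8e-05). Of 14 perivenous targets of β-catenin, limma called 2 under PB in C57BL/6, beside 0.874% of all genes, and 1 in B6C3F1, beside 2.00%. In C57BL/6 6 of the 14 were above 0, with a median log2 fold change of −0.1. In B6C3F1 8 were above 0, with a median of 0.04. Cyp1a2, a cytochrome P450 that PB itself induces, rose by 0.91 ± 0.16 in C57BL/6 and 1.30 ± 0.16 in B6C3F1 (limma adjusted p = 0.00343 and 7.6e-05). The C57BL/6 call was lost without mouse Vh_1021, Vh_1022, PB_2022 or PB_2025 (limma adjusted p of up to 0.018), and with the compared groups alone in the fit (0.0249). Rhbg, an ammonium transporter, rose by 0.96 ± 0.16 in C57BL/6 (limma adjusted p = 0.00148) and gave 0.46 in B6C3F1 (adjusted p = 0.0822), and the difference between these responses, −0.50, did not pass (adjusted p = 0.625). Glul, the glutamine synthetase gene that marks the cells next to the central vein, gave −0.10 ± 0.09 and −0.31 ± 0.09 (limma adjusted p = 0.76 and 0.035), and Axin2, a Wnt feedback gene, gave −0.34 and 0.00.

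The 14 targets summed to group means of 9460.4 and 9801 CPM in vehicle and PB mice of C57BL/6 and 8384 and 9064 CPM in B6C3F1, led by Cyp2e1 with a mean of 6319 CPM. Vehicle mouse Vh_1033, the lowest in Cdh1, had the lowest sum at 6064 CPM, where the other 17 mice lay between 8395 and 10612 CPM. The 11 periportal genes, of the zone where E-cadherin is best known, summed to means of 17452 and 15899 CPM in C57BL/6 and 16244 and 15419.8 CPM in B6C3F1. They were led by Cps1, of the urea cycle, at 7885 CPM. Under PB limma called 0 of 11 in C57BL/6 (beside 0.874% of all genes) and in B6C3F1 (beside 2.00%). In C57BL/6 the sums of all PB mice (15036 to 16581 CPM) were below those of all vehicle mice (17041 to 17769 CPM), and in B6C3F1 they overlapped. Between strains in vehicle, Slc1a2 and Oat, perivenous genes of glutamate and ornithine handling, were lower in B6C3F1 by −0.75 ± 0.16 and −0.63 ± 0.14 (limma adjusted p = 0.00452 and 0.00579). Under PB they were lower by −0.94 ± 0.14 and −0.77 ± 0.13 (limma adjusted p = 0.000216 and 0.000387). Slc1a2 and Oat were the 2 of the 14 targets called in each comparison, beside 3.63% of all genes in vehicle and 5.25% under PB. In vehicle, Slc1a2 lost its call without mouse Vh_1021, Vh_1023, Vh_1033 or Vh_1035 and Oat without Vh_1021, Vh_1023, Vh_1025, Vh_1031, Vh_1033 or Vh_1035 (limma adjusted p of up to 0.0174 and 0.0215). With the compared groups alone in the fit both lost it (limma adjusted p = 0.0208 and 0.0157). The periportal Hal, of histidine breakdown, was lower in vehicle B6C3F1 by −0.64 ± 0.08 (limma adjusted p = 1.55e-05). It was the 1 of the 11 periportal genes called there, beside 3.63% of all genes, and 4 of the 11 were above 0.

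Of 6 repressors of Cdh1, 4 were measured. Limma called 0 of these 4 in any comparison, beside 0% to 5.25% of all genes, and so short a list can hold 0 at those shares. Snai1 and Twist2 were absent from the table. Zeb1 gave log2 fold changes under PB of 0.01 in C57BL/6 and 0.08 in B6C3F1, Zeb2 gave −0.06 and 0.05, Snai2 −0.03 and 0.29, and Twist1, at or below 0.501 CPM in its group means, −0.20 and −0.32. Between the vehicle strains Zeb2 differed by −0.38 ± 0.09 (limma adjusted p = 0.00414), short of the size needed.

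Other cells of the liver were followed by their markers. Of these short lists limma called 0 under PB in either strain, beside 0.874% of all genes in C57BL/6 and 2.00% in B6C3F1. The 7 endothelial markers, led by Stab2 at 165 CPM, summed to means of 398 and 427 CPM in C57BL/6 and 375 and 385 CPM in B6C3F1. The 7 stellate cell markers, led by Reln at 181 CPM, came to 453 and 396 and to 461 and 388 CPM. The 7 Kupffer cell and macrophage markers, led by Clec4f at 73.1 CPM, came to 274 and 276 and to 215 and 206 CPM. The 4 proliferation genes measured of 5 (Ccnb1 absent), led by Mki67 at 4.76 CPM, came to 11.0 and 12.7 and to 8.46 and 7.4 CPM. The 3 lymphocyte markers measured of 6 (Cd3e, Cd79a and Nkg7 absent, and 1 of the 3 at 0 in some mice), led by Cd79b at 0.559 CPM, came to 1.57 and 2.02 and to 0.735 and 0.973 CPM. The 6 hepatocyte markers came to 69475 and 60995 and to 77748 and 65711 CPM. In B6C3F1 their sums were lower in all 5 PB mice (57328 to 72922 CPM) than in all 4 vehicle mice (75523 to 80369 CPM), and in C57BL/6 the groups overlapped. Alb makes up most of the sum, and the 6 genes were split in B6C3F1, with 3 above 0 and a median log2 fold change of 0.05. The part of any of these cells in the Cdh1 and Src results was not tested.

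In vehicle mice, where Cdh1 was lower in all B6C3F1 mice, some marker sums were also apart between strains. Kupffer cell sums were lower in B6C3F1 (180.2 to 232 CPM) than in C57BL/6 (238 to 339 CPM), as were lymphocyte sums (0.605 to 0.987 and 1.33 to 1.78 CPM). Hepatocyte sums were higher in B6C3F1 (75523 to 80369 CPM) than in C57BL/6 (59097 to 75488 CPM), with 6 of 6 genes above 0. The gap between 75523 (Vh_1032) and 75488 CPM (Vh_1022) is small beside the strain difference in scaling, as all values of these mice add up to 1.01628e+06 and 993090. The endothelial, stellate, proliferation and cholangiocyte sums overlapped. The part of these cells in the Cdh1 difference was not tested. Of single genes between the strains, 1 marker each was called for cholangiocytes, lymphocytes and hepatocytes. Beside these stand 3.63% of all genes called in vehicle and 5.25% under PB. Krt23, a keratin of bile ducts, was lower in B6C3F1 by −1.18 ± 0.28 in vehicle and −0.99 ± 0.25 under PB (limma adjusted p = 0.00498 and 0.00528). The first call was lost without mouse Vh_1022, Vh_1023, Vh_1025, Vh_1031, Vh_1032 or Vh_1035 (limma adjusted p of up to 0.0189), and the second without PB_2021, PB_2023, PB_2031, PB_2034 or PB_2035 (up to 0.0211). With a pseudocount of 1 the differences were −0.73 and −0.59, and with edgeR −1.24 and −1.06. Ms4a1, the B cell antigen CD20, was lower in vehicle by −2.28 ± 0.41 (limma adjusted p = 0.00054), from a mean of 0.667 to a mean of 0.0758 CPM, below the pseudocount. Its size depended on the processing, from −0.63 with a pseudocount of 1 to −3.02 with edgeR. Apoa1, an apolipoprotein of hepatocytes, was higher under PB by 0.95 ± 0.12 (limma adjusted p = 1.94e-05).

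The genes whose RNA was most like Cdh1 over the 18 mice, by Pearson's r of log2(CPM + 0.1), were Ncald (r = 0.922), Cobl (0.915), Mettl7a1 (0.907), Mup6 (0.899) and Sult1d1 (0.897). Within the 9 mice of B6C3F1 these r were 0.950 to 0.986, and within C57BL/6 0.663 to 0.950. Ncald, a calcium sensor, had group means of 17.8 and 22.6 CPM in C57BL/6 and 13.6 and 28.2 CPM in B6C3F1, in the order vehicle and PB. Sult1d1, a sulfotransferase, had 196 and 266 and then 138 and 251 CPM. Both were thus lowest in vehicle B6C3F1, as Cdh1 was.

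The genes most like Src were P2rx4 (r = 0.947), Tram1 (0.934), Ces2a (0.932), Cyp2d10 (0.930) and Ccl9 (0.927), with r of 0.926 to 0.975 within B6C3F1 and 0.782 to 0.894 within C57BL/6. Ces2a, a carboxylesterase, had group means of 458 and 904 CPM in C57BL/6 and 487 and 1499 CPM in B6C3F1, and P2rx4, an ATP-gated channel, had 40.3 and 46.2 and then 40.8 and 68.9 CPM. Cdh1 and Src themselves gave r = 0.697 over the 18 mice, 0.936 within B6C3F1 and 0.58 within C57BL/6. The mice of a strain fall into vehicle and PB groups, so these r describe how groups and mice line up together and carry no test.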

How the data were processed

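DNase-seq and total RNA-seq were measured in the livers of 18 mice, 4 or 5 per group of strain and treatment. The authors made the CPM values with STAR 2.4.0f1 (mm10), counts over UCSC RefSeq genes and edgeR 3.12.1 library scaling. The authors made the DHS signal values by Bowtie2 2.1.0 alignment to mm10, MACS2 2.1.1.20160309 peaks and DiffBind 1.16.3 counts in peaks of at least 3 samples, scaled by 1 factor per mouse. Every deposited value was a whole multiple of its column's step (its smallest value above 0) within 0.001 of a step, and whole reads were recovered from these. Reads per mouse were at least 615 for Cdh1 and 46 for Src, and fewer reads give a coarser value.

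limma 3.58.1 in R 4.3.3 (trend, robust) fitted log2(CPM + 0.1) over 4 groups for 13838 genes at a CPM of at least 0.4 in 3 samples of a group, and log2(normalized count + 1) within the groups compared for 98170 DHSs. The interaction used all 18 mice. Adjusted p is Benjamini-Hochberg over everything tested. A call needs a log2 fold change of at least 0.58 in size and an adjusted p of at most 0.01, the cutoffs of the study. edgeR 4.0.16 quasi-likelihood tests on recovered reads were an alternative, beside other pseudocounts, filters, quantile normalization, groups in the fit, an adjusted p of 0.05, a replicate block and each mouse left out. Code was tested on simulated data.

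Members were named by the rule: listed genes of the RNA table, and all DHSs of the interval. They and the gene lists were chosen with earlier results of these data known. Genome sequence and gene models are GRCm38.p6 with RefSeq, read with Python 3.11.15 and pandas 2.3.3. DHSs belong to a gene inside it or up to 5000 bp upstream. Protein sequences were not available and were left out. Chromosome 18 took part in the motif search, and none of its sequence is printed.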

Additional observations from a re-analysis of the deposited data

Results flagged for a closer look

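Among 120 groups of mice for the 10 genes and 20 DHSs, 4 held a mouse far from its group by Dixon's ratio of gap to range. Chance flags about 1 in 20 groups. Jup in vehicle C57BL/6 had mouse Vh_1023 at 25.2 CPM, where the other 3 mice had 27.0 CPM. Src in vehicle B6C3F1 had mouse Vh_1031 at 3.08 CPM, where the others had 2.18 to 2.27 CPM. The DHS at 106570525 in PB C57BL/6 had mouse PB_2022 at 188.0 normalized counts, where the others had 136.0 to 146.0. The DHS at 106619678 in PB B6C3F1 had mouse PB_2032 at 47.9 normalized counts, where the others had 81.1 to 85.4. All 4 mice were kept.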

How the results depend on the processing

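Counts of called items depended on single mice in the small groups. Of the 10 genes, the strain comparison in vehicle called 0 to 1 as each mouse was left out, and the PB comparisons stayed at 0 in C57BL/6 and 2 in B6C3F1. Of the 20 DHSs, the PB comparison in B6C3F1 called 0 to 2, the strain comparison in vehicle 2 to 7 and that under PB 0 to 2. With a replicate block, which paired mice by the last digit of their numbers, the PB count of DHSs in B6C3F1 was 0 where it was 2, and with all 4 groups in the fit it was 4. These mice are different animals. Correlations of paired deviations ran from −0.202 to 0.244, and a mouse was most like the mouse of its own number in 2 of 8 pairs in RNA and 1 of 8 in DHSs. Over all items the block moved the PB calls in RNA from 121 to 102 and from 277 to 208, and in DHSs from 360 to 403 and from 187 to 58 (C57BL/6, then B6C3F1). With the block, the start DHS of Cdh1 gave 1.67 (limma adjusted p = 0.0133) and 106605633 gave 1.38 (adjusted p = 0.0198), while Cdh1 RNA kept its call at 1.51 and Src at 1.57. Of the 30 single PB results run with the block, these DHSs and Cyp1a2 in C57BL/6 were the ones that lost a call. Between strains under PB, the DHS count of 0 became 2 at an adjusted p of 0.05 and 2 with edgeR. The cause of these shifts was not tested.

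Of single values, 649 kept their call and direction over the alternatives other than leave-outs, 10 lost a call and 3 changed sign, all of Yes1 near 0: 0.01 under PB in B6C3F1 with the block, and 0.00 for the difference between responses with quantile normalization and with edgeR. With fewer groups in the fit, Cyp1a2 in C57BL/6 (limma adjusted p = 0.0249), Cldn2 (0.0103), Oat (0.0157) and Slc1a2 (0.0208) lost their calls, as did Cyp1a2 with the block (0.0679), F11r with a pseudocount of 1 or with quantile normalization, where its difference was 0.55, and Krt23 under PB with the latter (0.0113).

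Leave-outs changed the sign of small values. For the PB response in C57BL/6 the ranges were −0.06 to 0.02 for Cdh2, −0.03 to 0.01 for Jup, −0.05 to 0.04 for Yes1, −0.02 to 0.24 for Epcam and 0.00 to 0.05 for Tjp1. Between vehicle strains they were −0.01 to 0.07 for Cdh2, −0.06 to 0.04 for Jup and −0.33 to 0.02 for Epcam. For Yes1 they were −0.05 to 0.01 under PB in B6C3F1 and −0.06 to 0.03 for the difference between responses.

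Limits: groups held 4 or 5 mice, a call also needed a set size of effect, and a call in 1 strain alone does not show that strains differ. The smallest DNase-seq library was that of vehicle B6C3F1 mouse Vh_1033, with 9 reads in the Cdh1 start DHS. Bulk RNA and chromatin mix cell types, and the tables used here hold no protein or phosphorylation values.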
